A study of Mus musculus with 2 samples.

Results

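Type I interferon response genes were followed through single-cell RNA profiles of the abdominal aorta of mice with an aneurysm. A list of 34 genes was taken by gene symbol, and 32 of them matched 1 of the 31253 features in the count matrices. Mx1 and Mx2, which encode dynamin-like GTPases that block viruses, matched no feature and are not analysed here. Both libraries came from mice whose aorta had been infused with the pancreatic elastase of pigs (PPE), which digests elastic fibres and so weakens the wall of the vessel. One library (WT) was made from control C57BL/6J mice and one (Gsdme-KO) from mice in which Gsdme had been deleted in the whole body. Gsdme encodes gasdermin E, which forms pores in the plasma membrane once caspase 3 has cut it. There was 1 library per group, and both aortas had received PPE. The number of mice in a library, their age and sex, the time after infusion, the allele and strain background of the deletion, and whether the WT mice were littermates are unknown here. No difference between the libraries could therefore be set against a spread between mice, and no test was run. Every interval below covers counting error only.

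Type I interferons are secreted by cells that sense viral or misplaced nucleic acid, and they bind a receptor made of the IFNAR1 and IFNAR2 chains on the same or neighbouring cells. The receptor activates the kinases JAK1 and TYK2, which phosphorylate STAT proteins such as STAT2, and these join IRF9 in a complex that binds interferon-stimulated response elements in promoters. The genes switched on in this way encode further sensors, enzymes that degrade or trap viral RNA, the ubiquitin-like protein ISG15, and IRF7, which feeds back on interferon production. In the inflamed artery wall, macrophages and monocytes are known to carry this signature.

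The WT library held 38988898 UMIs (unique molecular identifiers, which count captured transcripts) in 7736 barcodes, and the Gsdme-KO library 52532964 UMIs in 9034 barcodes. The cell filter left 7619 cells of WT (median 3835 UMIs) and 8784 of Gsdme-KO (median 4062 UMIs). The libraries shared 73 barcodes, of which 65 were kept in both. Gsdme itself gave 215 UMIs in WT, or 5.53 counts per 1000000 UMIs (CPM), and 133 UMIs in Gsdme-KO, or 2.55 CPM, a ratio of 0.461 with a 95% interval of 0.368 to 0.575. The deleted part of Gsdme is not given, so these counts do not check the label. The cells were clustered without the interferon genes. Of 26 clusters, 14 could be named from markers and held at least 100 cells of each library, together 12939 cells, and members are compared in these. The 5 unnamed clusters held 2791 mostly shallow cells.

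The DNA in front of several members carries the element that the complex of STAT2 and IRF9 binds, and 7 stretches from the RefSeq promoters (GRCm38.p6, 250 bases before to 50 bases after the start) are shown because the members behind them differed between libraries to very different degrees. The motif searched was TTTCNNTTTC on both strands, so that it also reads GAAANNGAAA, with overlapping matches allowed. Capitals mark the matches.
Ifit1: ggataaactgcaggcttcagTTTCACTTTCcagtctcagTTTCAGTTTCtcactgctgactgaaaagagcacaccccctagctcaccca
Ifit3: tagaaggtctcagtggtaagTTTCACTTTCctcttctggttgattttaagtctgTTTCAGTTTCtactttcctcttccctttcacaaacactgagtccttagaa
Rsad2: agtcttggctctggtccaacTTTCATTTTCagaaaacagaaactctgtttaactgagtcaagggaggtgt
Oas1a: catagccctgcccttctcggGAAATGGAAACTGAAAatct
Stat2: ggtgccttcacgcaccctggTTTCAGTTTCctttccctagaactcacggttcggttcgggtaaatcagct
Isg15: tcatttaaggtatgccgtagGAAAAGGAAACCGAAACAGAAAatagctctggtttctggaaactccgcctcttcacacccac
Bst2: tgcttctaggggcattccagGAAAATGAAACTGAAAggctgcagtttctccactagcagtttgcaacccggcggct

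The stretches lie on the plus strand for Ifit1 (chr19:34640765-34640853), Ifit3 (chr19:34583353-34583456) and Stat2 (chr10:128270256-128270325), and on the minus strand for Rsad2 (chr12:26456523-26456592), Oas1a (chr5:120907526-120907565), Isg15 (chr4:156200835-156200916) and Bst2 (chr8:71537547-71537622). All 7 are upstream of the gene start and none overlaps an exon. The stretch of Ifit3b (chr19:34607749-34607852) has the same 104 bases as that of Ifit3. Isg15 holds 3 overlapping matches, Ifit1, Ifit3, Ifit3b, Oas1a and Bst2 hold 2 each, and Rsad2 and Stat2 hold 1. The promoter table held 23 of the 34 listed genes, and 12 of these (52.2%) had a match in at least 1 promoter of 300 bases, against 1131 of 32851 promoters (3.44%) in the whole table. Over all cells the median log2 ratio of Gsdme-KO to WT was -0.44 for the members with a match and -0.31 for the other members with a promoter.

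Levels of the members depended strongly on the cell type. In the WT library 12 of the 32 members had their highest CPM in resident-type macrophage-like cells (cluster 12, led by Lyve1, Fcna and Cd163). A further 7 members were highest in the neutrophil-like cells of cluster 8, which are rich in S100a8 and S100a9. Monocyte-like cells (cluster 2, Ccr2 and Ly6c2) and the macrophage-like cells of cluster 4 (Cd72 and Slamf9) led for 4 members each. In the Gsdme-KO library cluster 12 led for 14 members and cluster 8 for 5, and 22 members had the same leading cluster in both libraries. Ifi204, a sensor of DNA, stood at 663 CPM in WT cluster 12 and at 605 CPM in the fibroblast-like cells of cluster 10, against 70.9 CPM in T cell-like cells (cluster 14). Ifi44, a GTP-binding protein of little known function, was steeper, with 99.3 CPM in cluster 12, 45.0 CPM in endothelial-like cells (cluster 17) and 1.58 CPM in cluster 8. Neutrophil-like cells of cluster 8 had in turn the highest WT levels of Oasl2 (331 CPM), Rsad2 (200 CPM), Ifit1 (162 CPM) and Oas3 (50.4 CPM). For Rsad2 and Oas3 the interval overlapped that of the next cluster. The other neutrophil-like cluster (cluster 9, Il23a and Mmp9) was the lowest of the 14 for several members, such as Parp9 with 36.8 CPM, Oas1a with 5.35 CPM and Ifi27l2a with 39.2 CPM. Trem2-type macrophage-like cells with Arg1 (cluster 1) had the lowest WT levels of Ifit2, Ifit3 and Ifit3b, for instance 5.04 CPM of Ifit3 against 121 CPM in cluster 4. Macrophage-like clusters were thus at both ends of the range of Ifit3.

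**Figure D1:**
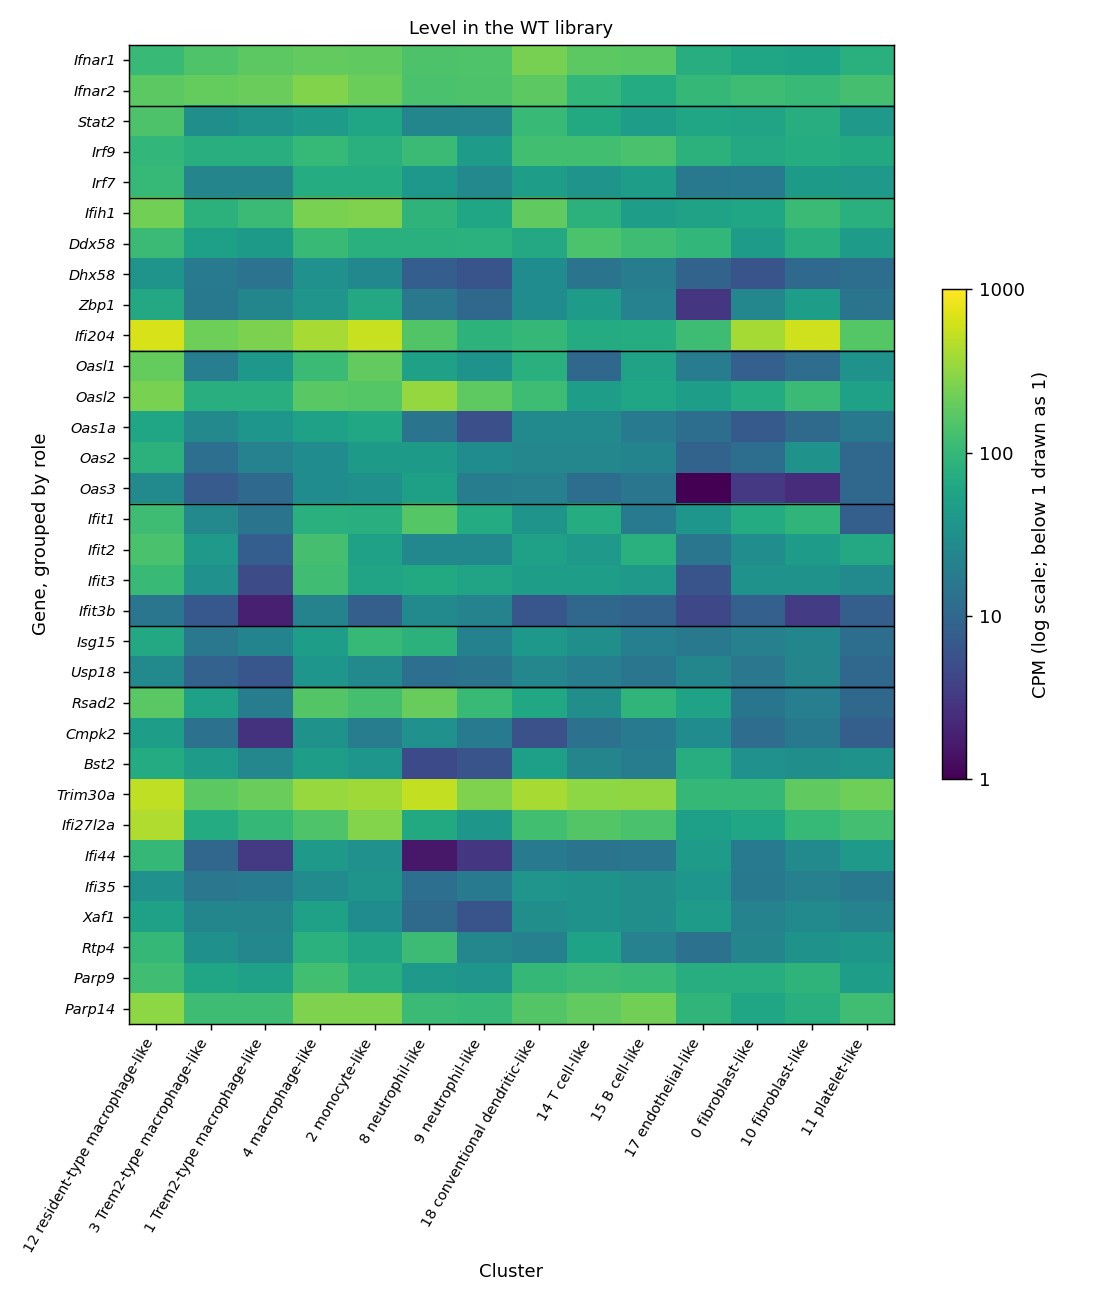
Level of each of the 32 matched members in the WT library, in CPM on a log colour scale, with members in rows grouped by role and the 14 compared clusters in columns. Resident-type macrophage-like cells (cluster 12) hold the highest level of 12 members, and Ifit3 runs from 5.04 CPM in cluster 1 to 121 CPM in cluster 4.

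In what follows a pair of levels gives the WT library against the Gsdme-KO library. Over all kept cells together 28 of the 32 members had a lower CPM in the Gsdme-KO than in the WT library, with a median log2 ratio of -0.31 against -0.07 over all 15793 genes with at least 30 UMIs in both libraries together, the floor for calling a gene measured. A member was called lower or higher where the libraries differed by at least 1.5-fold. By this rule 8 members were lower and 1 was higher in Gsdme-KO, where 8.12% of all measured genes were called lower and 7.73% higher. The 8 were the 4 IFIT genes, Rsad2, Parp14, Usp18 and Oas3. Without the 5% of cells richest in other members, 4 members were called lower and 1 higher. The member called higher was Ifi27l2a, which encodes a small hydrophobic protein and stood at 143 against 223 CPM (ratio 1.56, 1.51 to 1.61). Xaf1, Ifi44 and Zbp1 were above 1 without being called, at 1.30, 1.17 and 1.16. These sums over all cells also move with the make-up of the libraries. Cluster 12, where many members are highest, held 625 WT and 975 Gsdme-KO cells, and cluster 4 held 384 and 185. Ifi204 shows the difference, since its ratio was 0.991 over all cells but below 1 in 12 of the 14 clusters. Fewer cells of a type and less RNA per cell are therefore kept apart below by comparing within clusters.

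Within clusters the list median was below that of all genes in 13 of the 14, and the share of members called lower was above the share of all genes in 14. Among macrophages other than the resident type, cluster 4 had the lowest list median of the 14 clusters. There, 21 of 32 members were called lower and none higher, against 9.65% and 6.44% of all measured genes, and the list median was -0.78 against -0.04. In the Arg1 cluster 1, 16 of 25 were lower and none higher (7.42% and 5.61% of all genes), with a median of -0.63. Trem2-type cells with Gpnmb and Spp1 (cluster 3) had 13 of 32 lower and none higher (5.89% and 3.95%), with a median of -0.51. Resident-type macrophages had a less negative list median, though close to that of cluster 3. There, 11 of 32 members were lower and 1 higher (6.52% and 5.20%), with a median of -0.46, and in monocyte-like cells 6 of 31 were lower and none higher, where 7.08% and 7.34% of all genes were called. Conventional dendritic-like cells (cluster 18, Flt3 and Cd209a) had 12 of 30 members lower and none higher (9.19% and 8.78%). The leading genes of cluster 18 also held Siglech, a marker of plasmacytoid dendritic cells, and Ccr7 and Ccl22, markers of mature dendritic cells. The cluster may therefore hold several dendritic types. Where the interferon genes were left in for clustering, the clusters with most cells from cluster 4 had 6 of 32 members lower and a median of -0.25, so its place as the lowest was lost. The same setting gave 8 of 24 lower for cluster 1, 10 of 31 for monocyte-like cells and 12 of 31 for cluster 3. Resident-type cluster 12 then had 12 of 32 lower and a median of -0.51, below the -0.46 of cluster 1 and the -0.25 of cluster 4. Without the 5% of cells richest in other members 7 of 32 were lower in cluster 12 and 6 of 27 in cluster 18.

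Cells outside the mononuclear phagocytes showed the same direction in most clusters. Among neutrophil-like cells, 7 of 21 members were called lower in cluster 8 (10% of all genes lower, 10.3% higher) and 10 of 26 in cluster 9 (8.43% and 8.33%), with none higher in either. The calls of cluster 9 were not stable, since none of 21 members was called with the interferon genes left in for clustering, and none lower but 3 of 19 higher without the 5% of cells richest in other members. Cluster 8 had 15 of 23 lower under the first of these settings and 3 of 18 under the second. T cell-like cells had 11 of 26 lower and none higher (9.90% and 6.78%). B cell-like cells (cluster 15) had 10 of 19 lower and 1 higher (14.4% and 9.16%), with a median of -0.69 against -0.08 for all genes. With the interferon genes left in, B cell-like cells had 4 of 15 lower and 2 higher, and T cell-like cells thinned to 1000 UMIs had 0 of 10 lower. Both fibroblast-like clusters and the endothelial-like cells were nearer to their background. The fibroblast-like cells of cluster 0 (Sfrp1, C7 and Gdf10) had 6 of 31 members lower and 2 higher (13.8% and 5.20%), those of cluster 10 (Sema3c and Cd55) had 7 of 30 lower and 2 higher (12.1% and 7.21%), and endothelial-like cells had 3 of 20 lower and 1 higher (10.9% and 7.96%). Platelet-like barcodes (cluster 11, Pf4 and Ppbp) had 3 of 16 lower and 3 higher (12.2% and 11.3%) and a median of 0.03. This was not stable either, since 6 of 12 were lower and none higher, with a median of -0.46, with the interferon genes left in. No member was called higher in 8 of the 14 clusters, and the share called higher was above the background in 2.

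**Figure D2:**
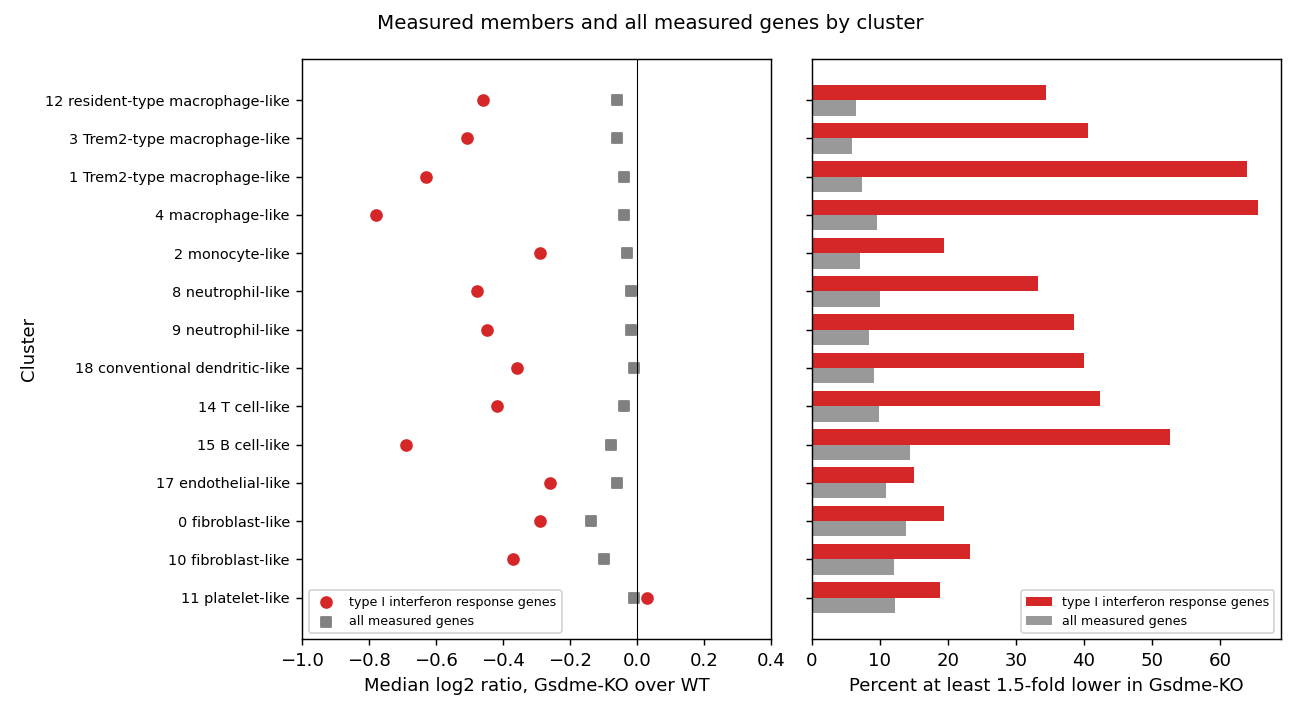
List median log2 ratio of Gsdme-KO to WT beside the median of all measured genes, and the percent of measured members and of all measured genes called lower, for each compared cluster. The list median lies below that of all genes in 13 of 14 clusters, from -0.78 in cluster 4 to 0.03 in the platelet-like cluster 11.

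Transcripts of the interferons themselves were close to absent. Of 20 interferon genes, 12 had no UMI in either library, and Ifnb1 and Ifng alone passed 30 UMIs. Ifnb1, the first type I interferon made on sensing nucleic acid, had 39 UMIs against 68 (1.00 against 1.30 CPM, ratio 1.30, 0.864 to 1.98), an interval that includes 1. Monocyte-like cells held 19 of the WT and 34 of the Gsdme-KO UMIs of Ifnb1, or 9.13 against 8.86 CPM. Ifng, the type II interferon of lymphocytes, whose targets overlap those of type I, had 38 UMIs against 18 (ratio 0.353, 0.190 to 0.634). In T cell-like cells it stood at 33.4 against 18.9 CPM.

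The receptor chains differed least of all roles. Ifnar1 and Ifnar2 were measured in all 14 clusters, and none of these 28 pairs of gene and cluster was called in either direction. Counts of calls by role or gene, here and below, stand beside 5.89% to 14.4% of all measured genes called lower, depending on the cluster. The share of all genes called higher ran from 3.95% to 11.3%, and 50.8% to 65.0% were below 1. Ifnar1 ratios ran from 0.728 in endothelial-like to 1.22 in T cell-like cells, and Ifnar2 ratios from 0.777 in cluster 9 to 1.25 in B cell-like cells. In cluster 4, where most members were lower, Ifnar1 was at 188 against 142 CPM and Ifnar2 at 273 against 237 CPM. In T cell-like cells Ifnar1 stood at 175 against 214 CPM. Over all cells Ifnar1 read 126 against 98.3 CPM (ratio 0.780, 0.750 to 0.811).

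Of the transcription factors, Irf7 differed most between the libraries. It was called lower in 7 of the 12 clusters where it was measured and higher in none. WT and Gsdme-KO levels of Irf7 were 71.5 against 27.5 CPM in cluster 4 (ratio 0.384, 0.255 to 0.562), 101 against 67.2 CPM in resident-type macrophage-like cells (0.663), 48.5 against 16.1 CPM in B cell-like cells (0.332) and 25.6 against 7.66 CPM in neutrophil-like cluster 9 (0.300). Fibroblast-like cells did not follow, with 17.7 against 18.7 CPM in cluster 0 and 42.6 against 37.7 CPM in cluster 10. Stat2, a subunit of the DNA-binding complex, was called lower in clusters 3, 4 and 14 and was below 1 in 13 of 14, the exception being B cell-like cells at 1.40 (0.861 to 2.28). In cluster 12 Stat2 was at 145 against 99.1 CPM, a ratio of 0.683. Irf9, the DNA-contacting subunit, was called lower in B cell-like cells alone (137 against 82.3 CPM) and stayed between 0.709 and 1.29 in the other 13. In cluster 4, where Irf7 had its ratio of 0.384, Irf9 was level at 101 against 102 CPM.

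Sensors of foreign nucleic acid were called lower in 19 of 59 pairs of gene and cluster and higher in 1. Of all measured genes 5.89% to 14.4% were called lower and 3.95% to 11.3% higher, depending on the cluster. Ddx58, which encodes RIG-I, was below 1 in all 14 clusters and called lower in 6, including fibroblast-like cluster 10 (75.2 against 41.7 CPM, ratio 0.555, 0.473 to 0.651) and T cell-like cells (143 against 83.7 CPM, 0.586). Ifih1, which encodes MDA5, was called lower in 6 of 14 clusters, for instance in dendritic-like cells with 187 against 104 CPM (0.555, 0.454 to 0.678). Zbp1, a sensor of left-handed nucleic acid that can start necroptosis, was lowest in the Arg1 cluster 1, where 52 UMIs in WT stood against 10 in Gsdme-KO (23.8 against 5.06 CPM, ratio 0.213, 0.0963 to 0.423). Monocyte-like cells, which had the most Zbp1, read 64.9 against 56.5 CPM and were not called. Ifi204 went both ways among lymphocytes, at 70.9 against 34.2 CPM in T cell-like cells and at 72.8 against 123 CPM in B cell-like cells. Dhx58, which encodes the RIG-I regulator LGP2, was below 1 in all 8 clusters where it was measured and called lower in 4.

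The oligoadenylate synthetase family, several of whose products activate the RNA-cutting enzyme RNase L, was called lower in 25 of 53 pairs and never higher. The shares of all genes were again 5.89% to 14.4% lower and 3.95% to 11.3% higher. Oasl2 was below 1 in all 14 clusters. The 3 macrophage-like clusters other than the resident type had the lowest ratios of Oasl2, namely 0.340 (0.244 to 0.467) in cluster 1 from 77.4 to 26.3 CPM, 0.391 in cluster 4 from 171 to 66.9 CPM and 0.453 in cluster 3 from 76.1 to 34.5 CPM. Oas3 was called lower in 6 of 7 clusters, with ratios from 0.420 in cluster 4 to 0.716 in cluster 12. Oas2 was called lower in 6 of 11. In cluster 12 Oas2 stood at 85.8 against 50.9 CPM and in T cell-like cells at 24.3 against 8.25 CPM, the latter from 24 and 7 UMIs. Oasl1 was called lower in 6 of 12 clusters, most in dendritic-like cells (80.9 against 30.2 CPM, ratio 0.373, 0.261 to 0.527), but not in cluster 4, where it was at 112 against 118 CPM. Oas1a, whose promoter stretch is shown above, was called lower in cluster 1 (37.6 against 17.7 CPM) and in T cell-like cells. Its transcript shares 57.6% of its 50-base words with Oas1g, so its counts are uncertain.

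The IFIT family, RNA-binding proteins that hold back translation of viral RNA, had the highest share of pairs called lower of all roles. Of 40 pairs of IFIT gene and cluster 34 were called lower and 2 higher, both of these in platelet-like barcodes. By cluster, 5.89% to 14.4% of all measured genes were called lower and 3.95% to 11.3% higher. In neutrophil-like cells of cluster 9 Ifit3 stood at 57.0 against 7.66 CPM, a ratio of 0.134 (0.0624 to 0.258) from 96 and 10 UMIs. In cluster 8 it was at 66.2 against 20.5 CPM, in cluster 4 at 121 against 34.3 CPM (0.285), in dendritic-like cells at 46.5 against 11.2 CPM (0.242) and in monocyte-like cells at 57.2 against 27.3 CPM (0.478). Resident-type macrophages kept more of it, at 109 against 59.7 CPM (0.547, 0.485 to 0.616). In T cell-like cells Ifit3 was at 47.6 against 18.9 CPM and in B cell-like cells at 41.0 against 17.8 CPM. Outside the immune cells it was at 34.4 against 14.5 CPM in fibroblast-like cluster 10 and at 33.5 against 23.1 CPM in cluster 0, where it was not called.

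Ifit1 and Ifit2 showed the same picture. Ifit1 was below 1 in all 12 clusters where it was measured and called lower in 10, with 162 against 42.1 CPM in neutrophil-like cluster 8 (ratio 0.260, 0.172 to 0.384), 117 against 49.5 CPM in cluster 12 (0.423) and 91.1 against 43.9 CPM in cluster 10 (0.482). Ifit2 was called lower in 10 of 11 clusters, with 129 against 37.7 CPM in cluster 4 (0.292), 136 against 62.3 CPM in cluster 12 (0.460) and 29.2 against 13.1 CPM in cluster 0 (0.450). Ifit3b was low throughout, with at most 26.8 CPM in WT, and was called lower in 4 of the 5 clusters where it passed 30 UMIs. The family sits together on the plus strand of chromosome 19 (Ifit2 34550694 to 34576419, Ifit3 34583531 to 34588731, Ifit3b 34607970 to 34613401 and Ifit1 34640871 to 34650009, mm10). Ifit3 shares 51.2% of its 50-base words with Ifit3b but 0.398% in the last 300 bases. The split of reads between these neighbours is therefore uncertain.

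**Figure D3:**
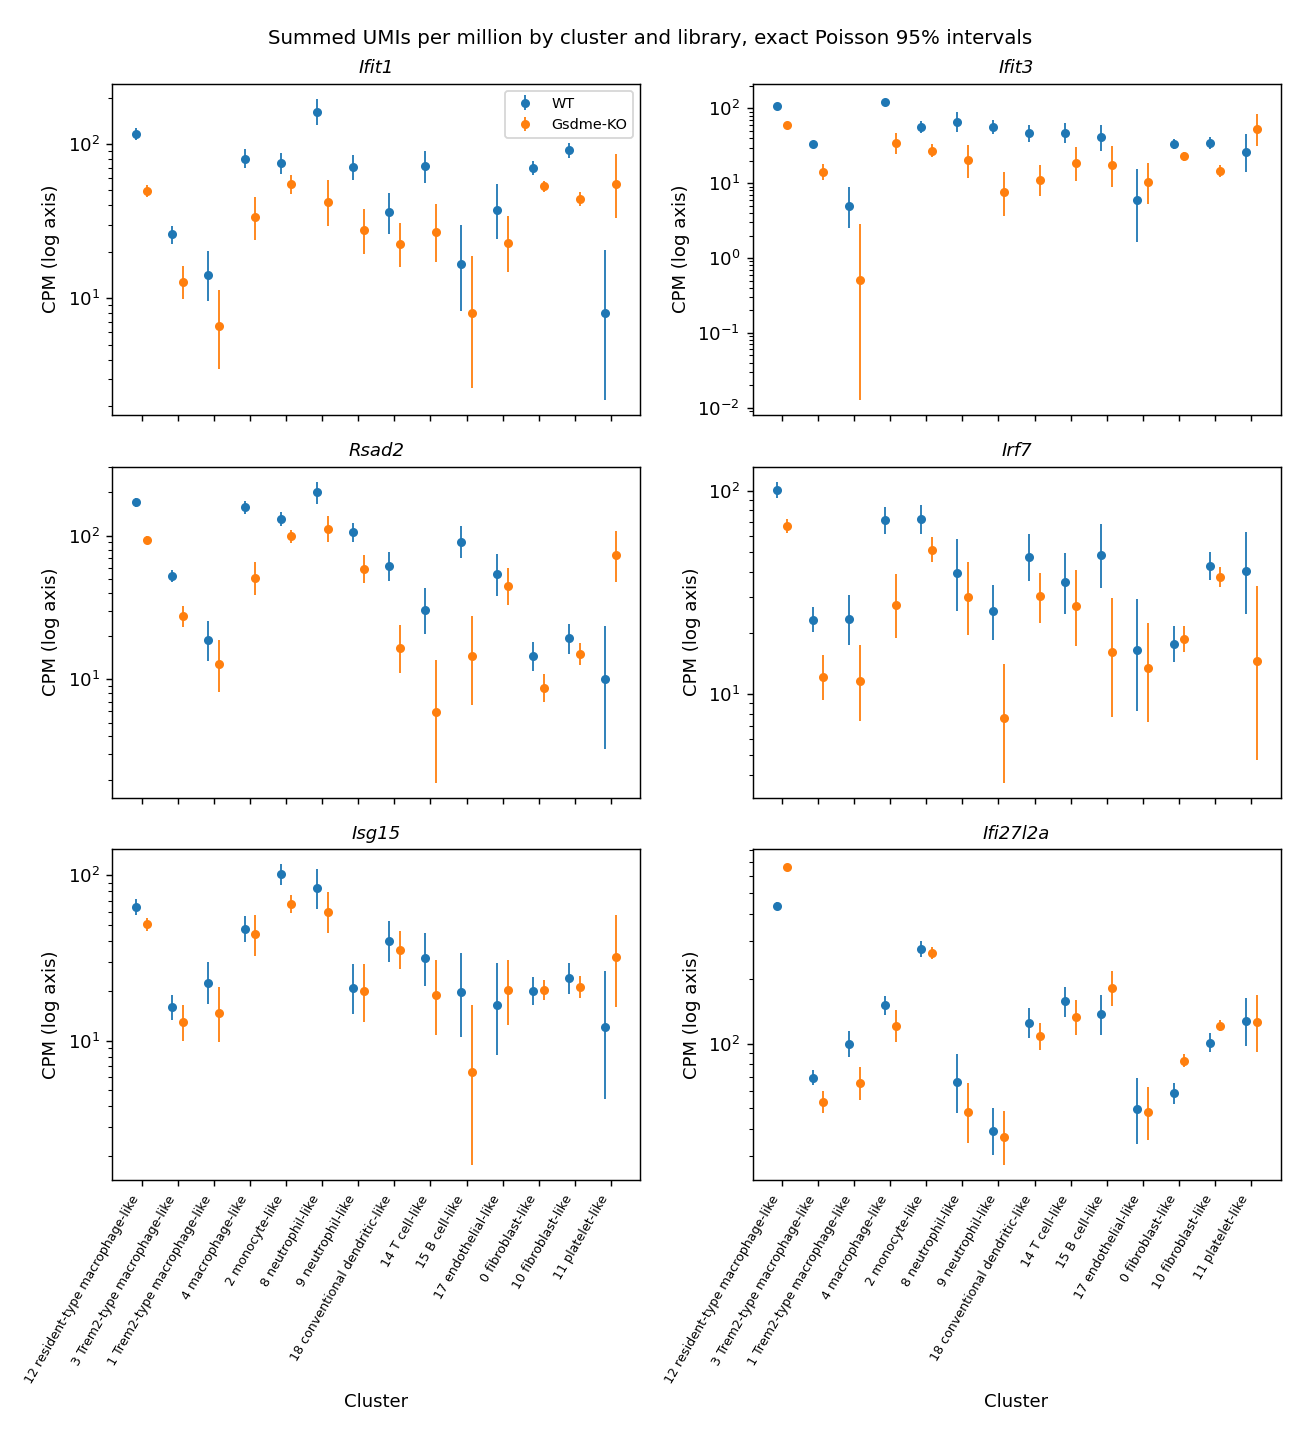
Levels of Ifit1, Ifit3, Rsad2, Irf7, Isg15 and Ifi27l2a in WT and Gsdme-KO cells of each compared cluster, in CPM on a log axis, with exact Poisson 95% intervals that cover counting error. Ifit3 reads 57.0 against 7.66 CPM in cluster 9, whereas Ifi27l2a reads 436 against 666 CPM in cluster 12.

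ISG15 conjugation held a member that barely differed and one that did. Over all cells Isg15 had 34.0 against 30.5 CPM (ratio 0.897, 0.833 to 0.965), and was called lower in 3 of 12 clusters, namely 1, 2 and 14. Monocyte-like cells, its highest cluster, had 101 against 66.9 CPM (0.663). In cluster 4 Isg15 stood at 47.4 against 43.8 CPM and in neutrophil-like cluster 9 at 20.8 against 19.9 CPM, the same clusters in which Ifit3 had ratios of 0.285 and 0.134. Usp18, the protease that removes ISG15 and also damps the receptor, was called lower in 7 of 9 clusters. Its lowest ratio was 0.264 (0.131 to 0.489) in cluster 3, with 8.89 against 2.35 CPM, and monocyte-like cells had 26.9 against 12.5 CPM.

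Among the other effectors, Rsad2, which encodes the antiviral enzyme viperin, followed the IFIT genes most closely in size. It was below 1 in 13 of 14 clusters and called lower in 9, with 158 against 50.6 CPM in cluster 4 (ratio 0.321, 0.240 to 0.423), 171 against 94.0 CPM in cluster 12 (0.550) and 61.7 against 16.6 CPM in dendritic-like cells (0.268). The lowest ratio was in B cell-like cells, where 60 UMIs in WT stood against 9 in Gsdme-KO (91.0 against 14.5 CPM, 0.160). Platelet-like barcodes went the other way with 5 and 25 UMIs (10.1 against 73.1 CPM). Parp14, an ADP-ribosyltransferase, was below 1 in all 14 clusters and called lower in 10, with 266 against 117 CPM in cluster 4 and 232 against 80.7 CPM in B cell-like cells (0.348, 0.247 to 0.481). Cmpk2, the neighbour of Rsad2 that encodes a nucleotide kinase, was below 1 in all 7 clusters where it was measured and stood at 46.9 against 22.6 CPM in cluster 12 (0.482). Trim30a, a ubiquitin ligase, was also below 1 in all 14 clusters, but by less, between 0.532 and 0.873. Bst2, which encodes tetherin and holds virus particles on the cell surface, was called lower in cluster 4 alone (46.6 against 25.7 CPM) and stood at 69.3 against 72.2 CPM in cluster 12. Parp9 and Ifi35 were called lower in 2 of 14 and 1 of 12 clusters, a share near that of all genes, which ran from 5.89% to 14.4% over the clusters.

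**Figure D4:**
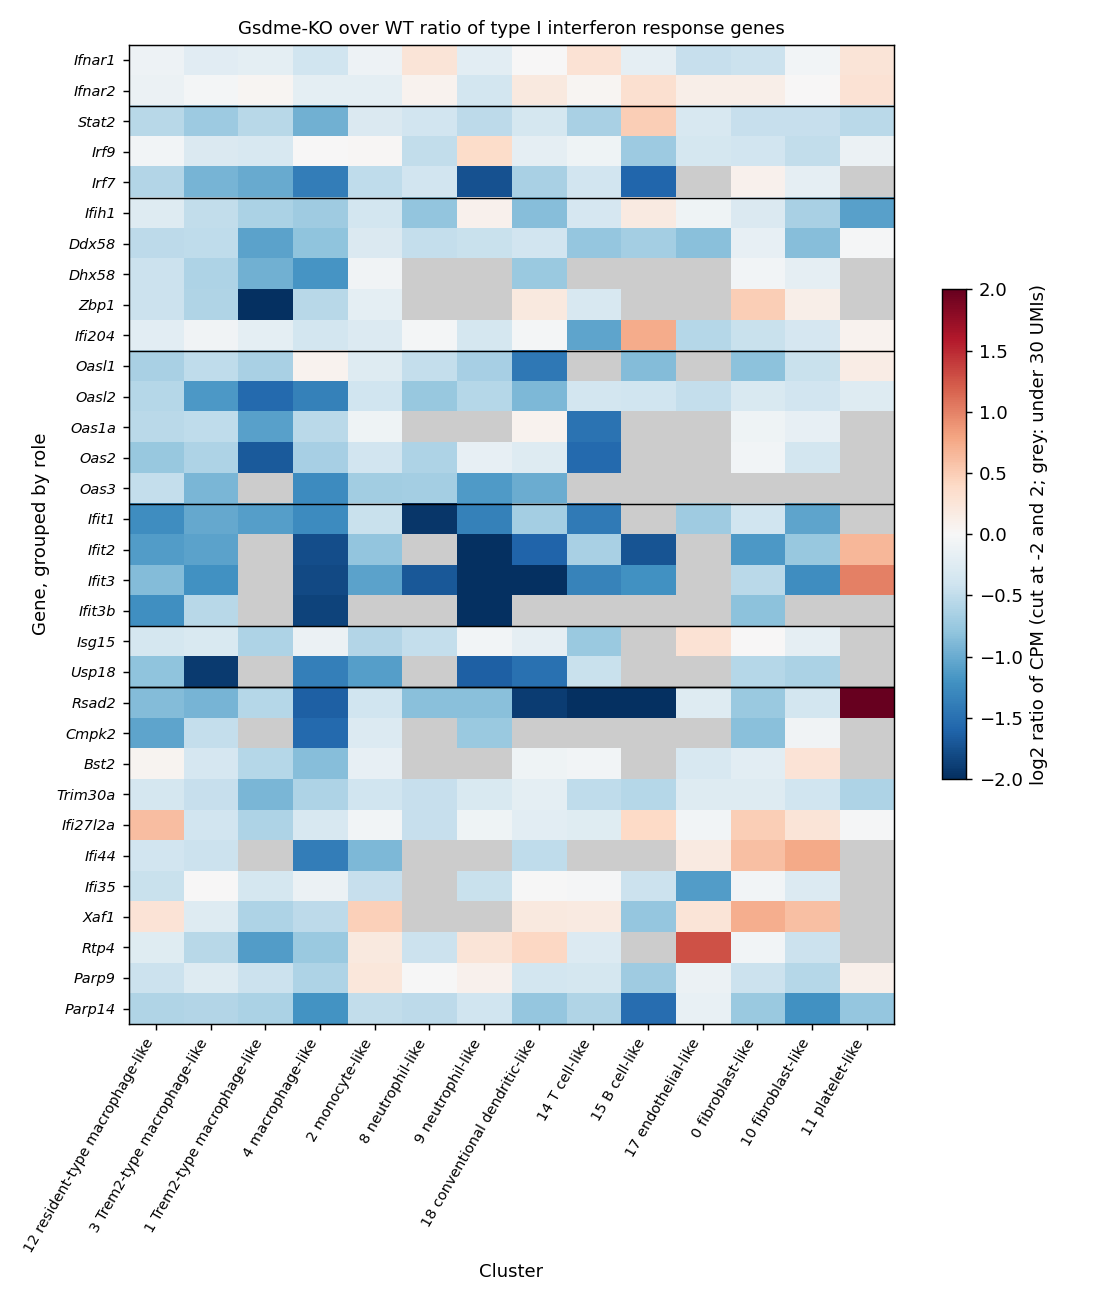
Log2 ratio of Gsdme-KO to WT for each member (rows, by role) in the 14 compared clusters (columns), with colours capped at -2 and 2 and grey where both libraries together held fewer than 30 UMIs. The IFIT rows are lower in 34 of 40 measured pairs, and the receptor rows are called in neither direction.

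A few effectors were called higher in Gsdme-KO cells in particular clusters. They made up 7 of 130 pairs of effector and cluster, where 3.95% to 11.3% of all measured genes were called higher, depending on the cluster. In resident-type macrophage-like cells Ifi27l2a had 436 against 666 CPM (ratio 1.53, 1.45 to 1.60, from 2140 and 6487 UMIs), while it was called lower in the Arg1 cluster 1 (99.8 against 65.3 CPM). Monocyte-like cells, next in level for Ifi27l2a, had 275 against 264 CPM. Ifi44 and Xaf1, a partner of the apoptosis inhibitor XIAP, were called higher in both fibroblast-like clusters. Ifi44 stood at 17.5 against 26.6 CPM in cluster 0 and at 27.5 against 46.7 CPM in cluster 10 (1.69, 1.36 to 2.13), and Xaf1 at 22.2 against 36.9 CPM (1.66) and at 26.5 against 39.9 CPM (1.51). In macrophage-like cluster 4 the same genes were at 40.4 against 15.4 CPM for Ifi44 and at 51.9 against 36.0 CPM for Xaf1. Rtp4, a chaperone-like protein induced by interferon, was higher in endothelial-like cells from 9 and 34 UMIs (13.5 against 32.5 CPM) and lower in clusters 1 and 4. In all, 24 members were called higher in none of the 14 clusters, 11 were below 1 in every cluster where they were measured, and 13 were called lower in at least as many of those clusters as not. Within a cluster, 50.8% to 65.0% of all measured genes were below 1 and 5.89% to 14.4% were called lower.

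Transcripts of macrophages were present in the other cell types as well and differed between the libraries, and this moved with some of the values above. All 12 markers of a macrophage list (C1qa, Csf1r, Apoe, Lyz2 and 8 others) were above 0 in every compared cluster. Their summed level was 1877 against 1053 CPM in the fibroblast-like cells of cluster 0 (ratio 0.561), 1883 against 1122 CPM in cluster 10 (0.596) and 3213 against 2469 CPM in neutrophil-like cluster 8 (0.768), with all 12 markers lower in these 3. The ratio was 0.645 in T cell-like, 0.733 in endothelial-like, 0.865 in dendritic-like and 0.928 in neutrophil-like cluster 9. B cell-like cells had 4861 against 6967 CPM (1.43), and platelet-like barcodes 15687 against 16664 CPM. The list was also counted over cells with no UMI of these markers other than Apoe and Lyz2. There the list median was -0.17 in cluster 0, -0.26 in cluster 10, -0.64 in cluster 8, -0.13 in cluster 9 and -0.19 in T cell-like cells, against -0.29, -0.37, -0.48, -0.45 and -0.42 over all cells of these clusters. In cluster 9, 3 of 12 measured members were called lower there, and in T cell-like cells 4 of 16. Fewer than 10 were measured there in B cell-like cells (7, of which 4 were called lower, median -1.24) and in dendritic-like cells (5, with 2 lower, median -0.11). Over cells with no UMI of any of the 12 markers only 1 to 6 members were measured, too few for a comparison with the medians above. The median was 0.52 in cluster 0 and 0.02 in cluster 10 (1 member each) and 0.53 in cluster 8 (3 members). In T cell-like cells the value was 0.44 (6 members), in cluster 9 -0.02 (5 members) and in B cell-like cells -0.98 (1 member). How much macrophage RNA adds to the values of the other clusters was not tested. Fibroblast-like cells also had lower ratios in general, with an all-gene median of -0.14 in cluster 0. Under TMM scaling, which centres on the bulk of the genes, cluster 0 had 4 members lower and 4 higher in place of 6 and 2.

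UMIs of the strongest members sat in few cells. Each cell was thinned to 1000 UMIs for this count, which left 6501 WT and 7353 Gsdme-KO cells. A UMI of Ifit1, Ifit2, Ifit3, Ifit3b or Rsad2 was then seen in 622 WT cells (9.57%, exact binomial interval 8.86 to 10.3) and 513 Gsdme-KO cells (6.98%, 6.40 to 7.58). The richest 5% of cells held 81.2% and 83.6% of these UMIs. For all members other than the receptors, the richest 5% held 32.8% and 27.1%. These shares cannot be compared directly, since few cells had any IFIT or Rsad2 UMI and a high share then follows in part from sparse counts. In neutrophil-like cluster 9, 41 WT cells held 97.6% of the 205 IFIT and Rsad2 UMIs and 1 cell alone held 38. Only 46 of its 819 WT cells had such a UMI, so the share of the richest was bound to be high. Counts that come in such bursts vary more between draws of cells than the counting intervals above allow.

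Cells with an IFIT or Rsad2 UMI carried other members too. At least 2 of the 25 other members were detected in 74.6% of such WT cells and in 30.7% of the cells without one. In the Gsdme-KO library the shares were 69.0% and 30.7%. Resident-type macrophage-like cells had the highest share of cells with an IFIT or Rsad2 UMI, 23.4% in WT and 15.9% in Gsdme-KO, and the Arg1 cluster 1 the lowest WT share, 2.74% with 1.69% in Gsdme-KO. In cluster 4 the share was 16.1% (12.5 to 20.2) and 6.56% (3.43 to 11.2), and in cluster 3 6.72% (5.31 to 8.36) and 2.30% (1.32 to 3.70). The intervals of the libraries, which cover the counting of cells and no spread between mice, did not overlap in clusters 3, 4 and 12. In the 2 neutrophil-like clusters the shares were 8.33% and 7.09%, and 5.62% and 4.62%, with overlapping intervals. The UMIs of the 5 genes summed there to 167 in WT and 66 in Gsdme-KO for cluster 8 and to 205 and 63 for cluster 9. The fullest WT cells held 34 and 38 of these UMIs, the fullest Gsdme-KO cells 17 and 14.

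**Figure D5:**
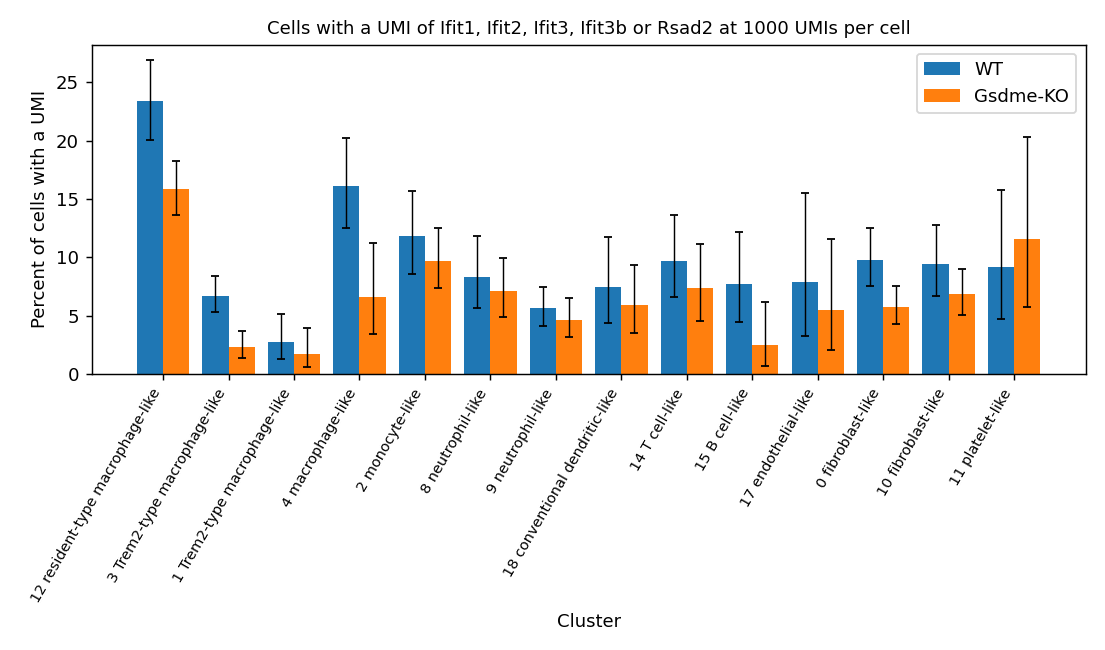
Percent of cells with a UMI of Ifit1, Ifit2, Ifit3, Ifit3b or Rsad2 after thinning each cell to 1000 UMIs, by cluster and library, with exact binomial 95% intervals. The share is highest in cluster 12, with 23.4% in WT and 15.9% in Gsdme-KO. The intervals are apart in clusters 3, 4 and 12, but they cover no spread between mice.

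The 30 members other than the receptors were also counted per thinned cell. At least 3 members were detected in 20.6% of cells in WT and in 18.4% in Gsdme-KO, a ratio of shares of 0.894 (0.828 to 0.965), and at least 5 in 7.92% and 5.48% (0.692, 0.606 to 0.790). Unthinned, the shares with at least 3 were 54.7% and 53.1%. The share with at least 3 was 14.9% and 6.76% in cluster 1, 30.9% and 19.7% in cluster 4, and 51.9% and 52.1% in cluster 12. Resident-type macrophages were level at 3 members (ratio 1.00, 0.871 to 1.16) but stood at 25.6% and 17.3% at 5 members (0.675, 0.540 to 0.844). B cell-like cells had 16.4% and 6.71% at 3 members (0.408, 0.187 to 0.825).

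Other genes of the pathway were listed apart from the members. Of 14 signalling genes 13 were below 1 over all cells, 2 were called lower and none higher, where 8.12% and 7.73% of all measured genes were called, with a median log2 ratio of -0.39. Socs3, a feedback inhibitor of cytokine receptors, was 1 of the 2 at 394 against 248 CPM (ratio 0.629), and Irf1 stood at 321 against 221 CPM and Jak1 at 466 against 424 CPM. Of 17 measured genes of nucleic acid sensing, such as Samhd1 (415 against 409 CPM) and Tbk1 (110 against 96.0 CPM), none was called in either direction over all cells. Among 69 further interferon-induced genes 11 were called lower and none higher (8.12% and 7.73% of all genes), with a median of -0.26. In cluster 4, 34 of 61 were called lower and none higher (9.65% and 6.44%), with a median of -0.62. The 2 with most UMIs were above 1 over all cells without being called, with Ly6e, a small surface protein, at 776 against 1038 CPM and Ifitm3, which blocks virus entry, at 561 against 771 CPM.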

How the data were processed

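Per the labels' protocols, abdominal aorta was digested and its cells captured with BD Rhapsody. The deposited values are raw UMI counts, as whole numbers for each gene and barcode, and no barcode had fewer than 500 UMIs. Per the submitters' processing notes, CASAVA 1.8, STARsolo and the mm10 build were used. The gene annotation and strand use in counting are not given in the sources used here. Overlapping genes on either strand were found for 12 of 32 members in GENCODE M21.

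Cells with at least 500 UMIs, 250 genes and at most 25% mitochondrial UMIs were kept. Scrublet marked so few cells that it had not worked, so doublets remain. After scaling to 10000 UMIs per cell, 2000 variable genes without interferon genes, 30 principal components and 15 neighbours gave Leiden clusters at resolution 1 (scanpy 1.11.5, igraph 0.11.9, Python 3.11.15, numpy 2.4.6, scipy 1.17.1). Only marker lists with at least 3 markers each detected in at least 25% of a cluster's cells were considered for its name. Of these, the cluster took the list whose markers had the highest mean log2 ratio to all other cells. Clusters shallow in both libraries, with no marker of that list among their 10 leading genes, stayed unnamed. No marker of the named type was among the 10 leading genes of clusters 0, 4 and 10. Counts were summed per cluster and library and divided by all UMIs there, times 1000000. Sums carry exact Poisson, shares exact binomial (Clopper-Pearson) and ratios exact conditional binomial 95% intervals. TMM factors came from edgeR 4.0.16 in R 4.3.3. Ratios and intervals were also run on simulated Poisson sums, which follow the counting model of the intervals. That run cannot check them for counts that come in bursts in few cells.

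Named members were, per cluster, up to 6 called lower and 3 called higher, ranked by the interval end nearest 1, with Isg15, Ifit3, Irf7, Bst2, Ifi27l2a, Ifnar1 and Ifnar2 always, and up to 4 pathway genes per list by UMIs. Other members given with values were chosen after these were seen. The members and lists were chosen with earlier results of these data known. Added after seeing the data were cells without macrophage UMIs other than Apoe and Lyz2, cells without shared barcodes, and clusters joined by kind. The values of 1 gene of the signalling list are not reported here.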

Additional observations from a re-analysis of the deposited data

Results flagged for a closer look

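For 5 members the ratio of Gsdme-KO to WT was at least 1.5-fold above 1 in one cluster and at least 1.5-fold below 1 in another, with both intervals clear of 1. The difference between the clusters was not tested, since there is 1 library per group, and each pair is the widest of the 14 clusters.

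Rsad2 was furthest apart, with ratios of 7.23 (2.72 to 24.2) in platelet-like barcodes and 0.160 (0.0696 to 0.324) in B cell-like cells, a log2 difference of 5.5. The platelet-like value rests on 5 and 25 UMIs, found in 2.28% of WT and 3.05% of Gsdme-KO barcodes. Its interval does not allow for counts that come in such few barcodes. Rtp4 had 2.41 (1.13 to 5.71) in endothelial-like cells and 0.459 (0.266 to 0.767) in the Arg1 cluster 1, a log2 difference of 2.39. Ifi44 had 1.69 (1.36 to 2.13) in fibroblast-like cluster 10 and 0.382 (0.217 to 0.635) in macrophage-like cluster 4, a difference of 2.15. Ifi204 had 1.68 (1.16 to 2.47) in B cell-like and 0.482 (0.302 to 0.753) in T cell-like cells, a difference of 1.8. The summed macrophage markers had ratios of 1.43 and 0.645 in the same clusters, and their part in the result was not tested. Ifi27l2a had 1.53 (1.45 to 1.60) in resident-type macrophage-like cells and 0.654 (0.522 to 0.817) in cluster 1, a difference of 1.23.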

How the results depend on the processing

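Over the alternatives run, list medians stayed within the order-statistic interval of the reported median over members in 183 of 201 cases. Counts of members called lower stayed within 1.5 times in 177 of 231, and ratios of cell shares within their interval in 28 of 39. This is a weak check, since most alternatives reuse the same counts and some intervals are wide. That of cluster 15 ran from -1.21 to 0.18, so its -0.30 with the interferon genes left in counted as within. The list median was below 0 in every alternative with at least 10 measured members for all cells and for 13 clusters. The exception is platelet-like cluster 11, where it ran from -0.46 to 0.25. TMM shifted all genes by up to 0.17 (log2), in cluster 0. Either TMM or scaling by the median of the gene ratios moved 15 of 371 pairs of gene and cluster, none of them called, across 1. The cause of each change below was not tested. Leaving out shared barcodes kept every value within these limits.

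Clusters made with the interferon genes gave medians of -0.46 in cluster 1, -0.45 in 2, -0.25 in 4, -0.86 in 8 and -0.13 in 9, and 8, 10, 6, 15 and 0 members lower there, with 6 in cluster 11, 4 in 15 and 7 in 17. At Leiden resolution 0.5 the medians of clusters 2 and 3 were -0.16 and -0.71, with 2 members lower in cluster 2 and 7 in 17. Resolution 2 gave 11 lower in cluster 0, 11 in 8 and 4 in 10. Thinning to 1000 UMIs gave medians of -0.37 in cluster 1, -0.16 in 2, -0.17 in 10, -0.34 in 12 and -0.23 in 14, and 2 members lower in cluster 1, 11 in 4, 4 in 9, 0 in 14 and 5 in 18, with fewer members measured. Without the 5% of cells richest in the other members, 4 were lower in all cells, 3 in cluster 8, 0 in 9 (with 3 higher), 7 in 12, 6 in 14, 3 in 15 and 6 in 18, with medians of -0.56 in cluster 1, -0.33 in 8, -0.14 in 9 and -0.23 in 14. In cells with no macrophage UMI other than Apoe and Lyz2 the medians of clusters 9 and 14 were -0.13 and -0.19, with 3 and 4 lower. Without the 5% highest Scrublet scores 1 was lower in cluster 11 and 7 in 14. The mean over cells gave 12 in cluster 8 and 5 in 17. A floor of 100 UMIs gave 8 in cluster 1, 4 in 8, 3 in 9, 3 in 14 and 6 in 18, and no floor gave 13 in cluster 8, 7 in 11, 17 in 15 and 8 in 17. A fold of 2, stricter by construction, left 2 in all cells, 1 in cluster 0, 8 in 1, 2 in 2, 5 in 3, 13 in 4, 2 in 8, 3 in 10, 1 in 11, 4 in 12, 6 in 14, 5 in 15, 1 in 17 and 5 in 18.

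At 5 members per cell the ratio of cell shares was 0.692 over all cells, 0.455 in cluster 0, 0.363 in 4, 0.675 in 12 and 0.525 in 14. Without thinning it was 0.971 over all cells, 1.00 in cluster 0, 0.795 in 1, 0.857 in 3, 0.936 in 4 and 0.957 in 10. Settings that left fewer than 10 measured members are not counted among the alternatives. In cells with no UMI of the macrophage list, 1 to 6 members were measured in clusters 0, 8, 9, 10, 14 and 15. No paired analysis was possible because each group has 1 library, and no library could be left out. Depth limits the low members: 30 UMIs over both libraries is the floor, and Ifit3b passed it in 5 of 14 clusters.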

Other observations

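Cycling-like cells (cluster 21, Mki67 and Top2a), with 90 WT and 83 Gsdme-KO cells under the minimum for a comparison, had the highest list median of the clusters with at least 10 measured members. Of 22 measured members 10 were called higher in Gsdme-KO and none lower, with a median log2 ratio of 0.41 against -0.09 for all genes, of which 8.48% were called higher. Xaf1 went from 6.44 CPM in WT cells to 56.5 CPM (6 and 52 UMIs, ratio 8.76), Rsad2 from 8.59 to 43.4 CPM (8 and 40 UMIs, 5.06, 2.33 to 12.5) and Stat2 from 13 to 37 UMIs (2.88). Ifi27l2a was at 82.7 and 207 CPM (2.51, 1.92 to 3.31). The IFIT genes, lower in most clusters, were under the floor here, with 5 and 10 UMIs of Ifit1 and 13 and 14 of Ifit3. Isg15 and Bst2, at ratios of 0.775 and 0.834, were not called. Cluster 21 was named from cell-cycle markers, so it may hold several cell types. All 12 markers of the macrophage list were detected there, and Ngp was among its leading genes. Levels of the members depend on the cell type, and whether the mix of types in cluster 21 differed between the libraries was not tested.

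The unnamed shallow clusters were mixed. List medians were -0.68 in cluster 13, -0.51 in cluster 6, 0.04 in cluster 16 and 0.28 in cluster 5, from 10 to 27 measured members each.

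Joined by kind, macrophage-like cells other than the resident type (clusters 1, 3 and 4) had all 32 members below 1 and 21 called lower, where 5.64% of all genes were. Ifit3 stood at 44.8 and 13.8 CPM there (ratio 0.309, 0.250 to 0.378) and Irf7 at 32.3 and 14.2 CPM. Joined sums also move with the mix of clusters. Clusters 1, 3 and 4 held 335, 1159 and 384 WT cells against 306, 726 and 185 Gsdme-KO cells. Within these clusters 24 of 25, 31 of 32 and 30 of 32 measured members were below 1. Joined neutrophil-like cells (clusters 8 and 9) had 59.6 and 12.6 CPM of Ifit3 (0.212, 0.135 to 0.322) and 95.8 and 33.2 CPM of Ifit1.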
